A study of Mus musculus with 6 samples.

Results

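Translation factors and aminoacyl-tRNA synthetases were followed in mouse embryonic stem cells that lack HDAC1, a class I histone deacetylase, and in wild-type cells. The members were all genes whose platform symbol begins with Eif or Eef and a digit, without the sex-linked pair Eif2s3x and Eif2s3y, together with 20 listed cytosolic tRNA synthetases. They numbered 66 genes of 8251 measured, and 19 of the 20 synthetases were among them (Dars was not analysed here). Each gene was read from its brightest single-gene probe set by mean signal over all arrays, a choice that does not use the difference between the genotypes. The groups were HDAC1 knockout embryonic stem cells (3 arrays) and wild-type embryonic stem cells (3 arrays), both derived from embryos of the same litter and left untreated. Biotin-labelled cRNA of each sample was read on its own Affymetrix MG U74Av2 array. Per the labels, cells grew in serum either with LIF on gelatin or on feeder cells without LIF, and which sample had which is not given. The titles call the arrays biological replicates without saying if they came from different cell lines, so p-values reflect no more than the variation among these 6 samples.

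Translation begins when eIF2, loaded with GTP and initiator methionyl-tRNA, joins the small ribosomal subunit with eIF1, eIF1A, eIF3 and eIF5. The eIF4 group binds the mRNA cap and unwinds the leader, and eEF1 and eEF2 then drive elongation with amino acids that the synthetases have joined to their tRNAs. Phosphorylation of the alpha subunit of eIF2 by stress kinases lowers bulk initiation and favours the transcription factor ATF4, which raises genes of amino acid supply, several synthetases among them. Pluripotent stem cells are known for a low rate of protein synthesis relative to their differentiated progeny.

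Values are MAS5 signals on a linear scale, and fold changes and log2 differences are HDAC1 knockout against wild type on the log2(signal + 16) scale. A gene was called when its adjusted p in limma, over all 12422 probe sets, was under 0.05. Array signals at or under 116.4, the 95th percentile of spike-in probe sets made for bacterial and yeast RNA, are said to be at background, and a genotype is at background when its mean is. Hdac1 itself had 141.8 ± 48.0 in knockout cells and 2310.3 ± 104.7 in wild-type cells (SD, n = 3 each; limma adjusted p = 2.32e-06). All 8 stem cell markers were above background in both genotypes, and 4 of them were called higher in knockout cells. Of 14 feeder fibroblast markers, 4 were called lower and 0 higher, and Postn and Lum were at background in both genotypes. The summed signal of the fibroblast markers was 10566 to 10984 in knockout arrays and 13791 to 14830.2 in wild-type arrays. The 3' to 5' signal ratio of beta-actin, a sign of RNA integrity, was 1.04 to 1.09 in knockout arrays and 1.15 to 1.21 in wild-type arrays. X-linked genes had a median log2 difference of 0.23 (259 genes) and autosomal genes one of -0.041 (7971 genes). The part of feeder RNA, RNA quality or sex chromosomes in the results below was not tested, and in bulk RNA fewer cells of a type and less RNA per cell cannot be told apart.

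Of the translation genes, 5 of 66 changed: Eif2s2, Eif1ax and Tars were higher in knockout cells, and Eef1akmt1 and Eif4g3 were lower. The median log2 difference of the 66 members was -0.0093, with 33 above and 33 below 0, beside a median of -0.037 over all genes. A log2 difference within 0.25 of 0 was found for 47 members (71.2%) and for 51.8% of all genes. The members' probe sets were also brighter, with a median signal of 1241.4 beside 285.7 over all genes. At background in both genotypes were 6 of the 66 members and 2282 of the 8251 genes. Among those above background in at least 1 genotype, the median size of the log2 difference was 0.17 for members and 0.21 for all genes.

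The 3 members called higher were 4.55% of the 66, where 2.70% of all genes were called higher, and the 2 called lower were 3.03%, where 1.88% of all genes were. At an unadjusted p under 0.05 there were 19 members (28.8%), beside 17.1% of all genes. The knockout and wild-type arrays did not overlap for 23 members (34.8%), 12 higher and 11 lower, beside 22.4% of all genes. The shares over all genes include the 2282 at background in both genotypes, and shares above background alone were not computed. With each array's log2 values centred on their median, 4 members were higher and 1 lower. With single arrays left out, the counts were 1 to 3 higher and 1 lower. Without a trend in the variance model, 0 were higher and 2 lower by limma. In that fit 10 members stood at an unadjusted p under 0.05, and the share over all genes was not computed for it. The plot of all members by role shows the narrow spread around 0, and the plot of difference against signal sets it beside all genes.

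**Figure D1:**
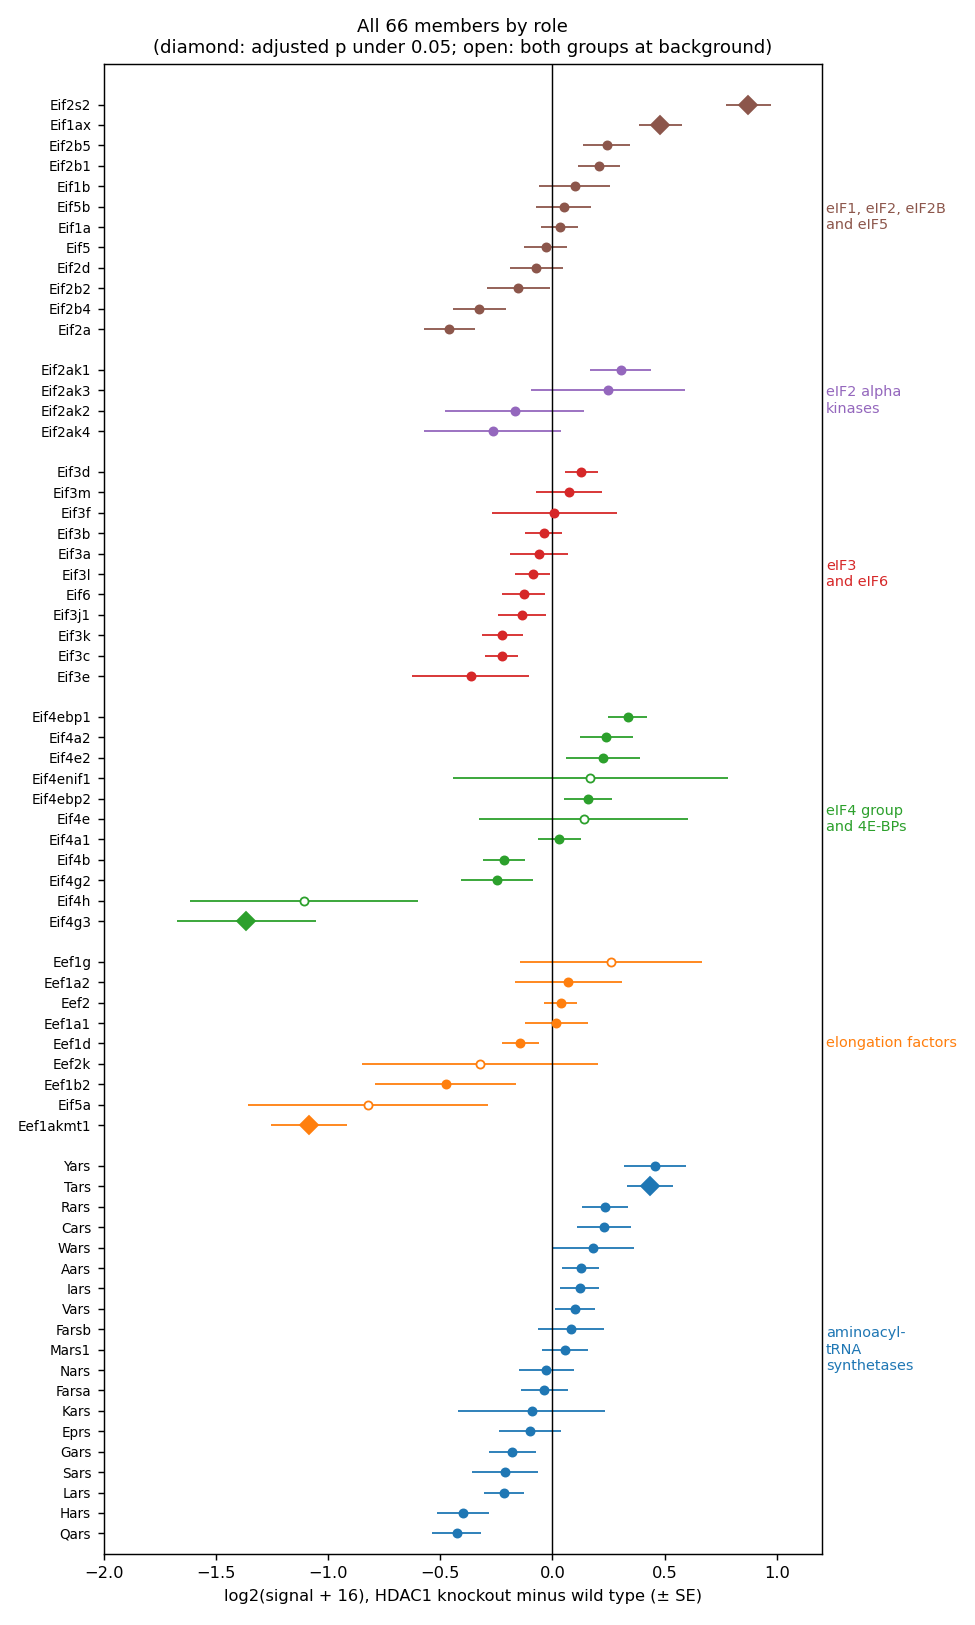
Log2 difference (HDAC1 knockout minus wild type, log2(signal + 16), ± SE from limma) on the x axis for each of the 66 members, listed by gene on the y axis and coloured by role. Diamonds are the 5 members with adjusted p under 0.05, and open circles are the 6 members at background in both genotypes. Most points lie within 0.25 of 0, with Eif2s2 highest at 0.87 and Eif4g3 lowest at -1.36.

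**Figure D2:**
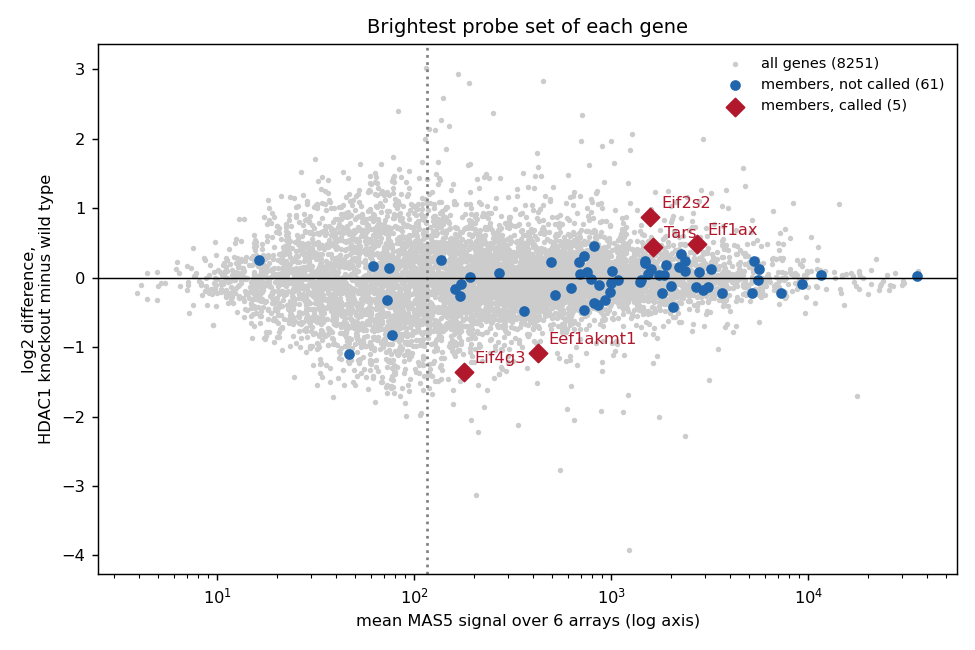
Log2 difference (HDAC1 knockout minus wild type) on the y axis against the mean MAS5 signal over 6 arrays (log axis) for the brightest probe set of each of 8251 genes (grey). The 66 members are overlaid, with the 5 called ones as red diamonds, and the dotted line is the background level. The grey cloud is wider at low signal, and among the called members Eif4g3 and Eef1akmt1 are dimmer than Eif2s2, Eif1ax and Tars.

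Eif2s2 encodes the beta subunit of eIF2, which contacts eIF5 and eIF2B. Its signals were 1868, 2116 and 2141 in the knockout arrays, against 1013, 1199 and 1113 in the wild-type arrays. The lowest knockout array lay well above the highest wild-type array. Eif2s2, on chromosome 2, rose 1.83-fold, with a log2 difference of 0.87 ± 0.10 (SE; limma adjusted p = 0.000674). A second, dimmer probe set gave 435.8, 481.4 and 335.4 in knockout arrays, against 265.2, 226.0 and 261.6 in wild-type arrays. These groups did not overlap either, and the log2 difference of 0.69 ± 0.21 missed the threshold (limma adjusted p = 0.118). The brightest probe set was called whichever of the 6 arrays was omitted (adjusted p 0.0019 to 0.00837), and in 16 of 17 other settings in all. The exception was the variance model without a trend (adjusted p = 0.0657).

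Eif1ax, the X-linked gene for eIF1A, which helps the ribosome scan to the start codon, had signals of 3113, 3050.1 and 3311 in knockout cells and 2496, 2307 and 1995 in wild-type cells. Every knockout array was above every wild-type array. The gene rose 1.40-fold (log2 difference 0.48 ± 0.095, limma adjusted p = 0.0194). It is the 1 member on the X chromosome, where the median difference was 0.23. Of 259 X-linked genes 52 were called higher and 6 lower, and of 7971 autosomal genes 171 were called higher and 148 lower. The second probe set of Eif1ax had a log2 difference of 0.35 ± 0.15 (adjusted p = 0.3 by limma), with 1 knockout array inside the wild-type range. The call was lost without HDAC1 knockout replicate 1, 2 or 3 (adjusted p = 0.0574, 0.0686 and 0.0937). Omitting wild type replicate 2 also ended it (adjusted p = 0.0531), as did the variance model without a trend (limma adjusted p = 0.252). Eif1a, the autosomal gene for the same factor, had 1965, 1818 and 1851 in knockout arrays and 1901, 1775 and 1829 in wild-type arrays. Those groups overlapped, with a log2 difference of 0.033 ± 0.082 (limma adjusted p = 0.92), and whether the pair differ in response was not tested.

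Eif2a encodes eIF2A, a separate factor that can bring initiator tRNA to the ribosome and is no subunit of eIF2. It had 585.0, 627.8 and 605.5 in knockout arrays, against 827.0, 889.3 and 803.6 in wild-type arrays. The groups lay far apart relative to their spread, yet the log2 difference of -0.46 ± 0.11 fell just short of the threshold (limma adjusted p = 0.0537). Across alternatives that value lay between 0.0422 and 0.218.

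Among subunits of eIF2B, the exchange factor that reloads eIF2 with GTP, the differences had both signs and none passed the test by limma. Of the 4, 3 stood at an unadjusted p under 0.05, beside 17.1% of all genes. Eif2b4, the delta subunit, had 858.1, 797.7 and 810.8 in knockout arrays and 905.0, 1052 and 1162 in wild-type arrays (log2 difference -0.33 ± 0.12, limma adjusted p = 0.205). Eif2b5, the catalytic epsilon subunit, had 1595, 1600.0 and 1611 in knockout arrays and 1472, 1431 and 1172 in wild-type arrays (0.24 ± 0.10, limma adjusted p = 0.297). Eif2b1, the alpha subunit, had 1697, 1463 and 1587 in knockout arrays against 1427, 1323 and 1347 in wild-type arrays (0.21 ± 0.092, limma adjusted p = 0.317). In all 3 of these subunits the groups did not overlap, beside 22.4% of all genes. The delta subunit was lower and the epsilon and alpha subunits were higher in knockout arrays. Eif2b2, the beta subunit, overlapped between the genotypes, with a log2 difference of -0.15. Of the 12 members of the start codon and initiator tRNA group, 2 (16.7%) rose and 0 fell, beside 2.70% and 1.88% of all genes. Their median log2 difference was 0.042. At an unadjusted p under 0.05 stood 6 (50%), beside 17.1% of all genes. The knockout and wild-type arrays did not overlap for 6 (50%), beside 22.4% of all genes. The remaining members Eif1b, Eif2d, Eif5 and Eif5b had log2 differences between -0.071 and 0.10, with overlapping groups.

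The 4 kinases that phosphorylate eIF2 alpha gave no call by limma. At an unadjusted p under 0.05 stood 1 (25%), beside 17.1% of all genes. Eif2ak1, the heme-regulated kinase, had 887.4, 764.3 and 751.7 in knockout arrays, against 575.1, 623.7 and 745.0 in wild-type arrays. The lowest knockout value was only just above the highest wild-type value (log2 difference 0.30 ± 0.14, limma adjusted p = 0.321). Eif2ak4, or GCN2, the kinase that senses uncharged tRNA, had 167.1, 119.5 and 173.0 in knockout arrays, against 169.1, 204.5 and 183.7 in wild-type arrays. Its groups overlapped, and its signals were close to background (log2 difference -0.27 ± 0.31, limma adjusted p = 0.768). Eif2ak2, the RNA-activated kinase PKR, and Eif2ak3, the endoplasmic reticulum kinase PERK, had log2 differences of -0.17 ± 0.31 and 0.25 ± 0.34. Both overlapped between the genotypes and were also close to background. Mean signals in knockout and wild-type arrays were 149.7 and 170.4 for Eif2ak2, and 150.0 and 122.3 for Eif2ak3. Of the arrays of Eif2ak3, 1 wild-type array was at background.

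eIF3 is the large scaffold that holds the small subunit, the initiator tRNA complex and the mRNA together, and eIF6 keeps the large subunit from joining early. Of these 11 genes none was called by limma, and 2 (18.2%) stood at an unadjusted p under 0.05, beside 17.1% of all genes. The log2 differences lay between -0.36 and 0.13 with a median of -0.088. Of the 11, 8 were negative, beside 4516 of all 8251 genes. With median centring 6 of the 11 were negative, as Eif3a and Eif3b turned positive. Eif3c, a core subunit, had 6907, 6825 and 6369.5 in knockout arrays, against 7627, 8023 and 7853 in wild-type arrays. These groups stood clear of each other, with a log2 difference of -0.23 ± 0.074 (limma adjusted p = 0.152). Eif3k, a peripheral subunit, had 4819, 4848 and 4608 in knockout arrays and 6129, 5739.5 and 4873 in wild-type arrays (log2 difference -0.22 ± 0.093, limma adjusted p = 0.281). Here the lowest wild-type array was close to the knockout arrays. Eif3d, a subunit that can itself bind the cap, was the 1 member of the group whose knockout arrays all lay above the wild-type arrays. It had 6083, 5845 and 5688 in knockout cells against 5567, 5324 and 5212 in wild-type cells (log2 difference 0.13 ± 0.073, limma adjusted p = 0.455). Eif3l, the brightest of the group, had 9353.5, 8702.5 and 8820 in knockout arrays and 9256, 9223 and 10106 in wild-type arrays, with overlap.

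In the cap-binding group, Eif4g3 encodes a paralog of the scaffold eIF4G that joins the cap-binding protein to the helicase. Its signals were 88.7, 82.9 and 105.2 in knockout arrays, against 259.8, 295.2 and 233.4 in wild-type arrays. All 3 knockout arrays were at background and no wild-type array was. Eif4g3, on chromosome 4, fell at least 2.10-fold with the knockout arrays set to the background level (fitted log2 difference -1.36 ± 0.31, limma adjusted p = 0.037). The call was lost without any 1 of the 6 arrays (HDAC1 knockout replicate 1, 2 or 3, wild type replicate 1, 2 or 3), with adjusted p between 0.071 and 0.145, and with median centring (adjusted p = 0.0521). The direction was the same in all 17 other settings.

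Eif4ebp1 encodes 4E-BP1, the repressor that holds eIF4E until mTORC1 phosphorylates it. It had 2321, 2545 and 2701 in knockout arrays, against 2035, 1874 and 2074 in wild-type arrays. The groups did not overlap, and the log2 difference of 0.34 ± 0.088 missed the threshold (limma adjusted p = 0.0708). The gene passed it with median centring (adjusted p = 0.0379), the 1 of 17 other settings in which it was called. In the others its limma adjusted p reached 0.384. Eif4ebp2, its paralog, had a log2 difference of 0.16 ± 0.11 with overlapping groups. The helicase gene Eif4a2 had 4827.5, 5885 and 6453 in knockout arrays and 4232, 5142 and 5096.5 in wild-type arrays (log2 difference 0.24 ± 0.12, limma adjusted p = 0.373), with overlap. Eif4a1, the other helicase gene, had a log2 difference of 0.031, and Eif4g2, a further eIF4G paralog, one of -0.25, both with overlap. Eif4b, the helicase's cofactor, had 3668, 3188 and 3301 in knockout cells against 3615, 4331.5 and 3865 in wild-type cells (log2 difference -0.22 ± 0.092, limma adjusted p = 0.297), with 1 knockout array inside the wild-type range. The probe sets of Eif4e, the cap-binding protein itself, Eif4enif1, its transporter, and Eif4h, a helicase cofactor, were at background in both genotypes, so no fold is given for them. Eif4e had 101.3, 62.8 and 64.7 in knockout arrays and 117.1, 46.5 and 51.2 in wild-type arrays.

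Among elongation genes, Eef1akmt1 encodes a lysine methyltransferase that modifies eEF1A. Its signals were 275.6, 248.0 and 270.7 in knockout arrays, against 648.4, 580.6 and 516.1 in wild-type arrays. The knockout arrays lay close together under the lowest wild-type value and stayed above background. Eef1akmt1, on chromosome 14, fell 2.12-fold (log2 difference -1.09 ± 0.17, limma adjusted p = 0.00487), and it kept its call in all 17 other settings (adjusted p 0.00294 to 0.0386). It has 1 probe set, so no second one bears on it.

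Eef1a1, the main factor that brings aminoacyl-tRNA to the ribosome, had 42452, 33238 and 31782 in knockout arrays, against 36945, 29555 and 39626 in wild-type arrays. The wild-type range lay within the knockout range but for its lowest array (log2 difference 0.017 ± 0.14, limma adjusted p = 0.98). Eef2, the translocase, had 11655, 11721 and 11817 in knockout arrays, against 11103, 11287 and 11941 in wild-type arrays (log2 difference 0.036 ± 0.074, limma adjusted p = 0.894). Eef1d, a subunit of the exchange factor for eEF1A, had 3116, 2737.5 and 2926 in knockout cells, and 3392, 3131 and 3165 in wild-type cells. These groups did not overlap but lay close together (log2 difference -0.14 ± 0.081, limma adjusted p = 0.465). Eef1b2, another subunit of that factor, varied widely within both genotypes, from 187.0 to 484.0 in knockout arrays and from 316.0 to 490.1 in wild-type arrays. Eef1a2, the second eEF1A gene, overlapped with a log2 difference of 0.071. The probe sets of Eef1g, Eef2k and Eif5a were at background in both genotypes.

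Of the 19 aminoacyl-tRNA synthetases, 1 (5.26%) rose and none fell by limma, beside 2.70% and 1.88% of all genes. Their median log2 difference was 0.055. At an unadjusted p under 0.05 there were 6 (31.6%), beside 17.1% of all genes. The knockout and wild-type arrays did not overlap for 8 of the 19 (42.1%), 5 higher and 3 lower, beside 22.4% of all genes. Tars, which charges tRNA with threonine, had 1941, 2003 and 1654 in knockout arrays, against 1361, 1279 and 1476 in wild-type arrays. Every knockout array exceeded every wild-type array. Tars, on chromosome 15, rose 1.35-fold (log2 difference 0.44 ± 0.10, limma adjusted p = 0.0435). The call was lost without HDAC1 knockout replicate 1 or 2 (adjusted p = 0.144 and 0.181). It was also lost when wild type replicate 1 or 2 was omitted (adjusted p = 0.124 and 0.138), without a variance trend (adjusted p = 0.301) and with robust estimation (adjusted p = 0.0591).

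Yars, the tyrosyl enzyme, had 849.7, 1088 and 902.4 in knockout arrays, against 746.4, 713.5 and 592.7 in wild-type arrays. Its groups did not overlap, and the log2 difference of 0.46 ± 0.14 missed the threshold (limma adjusted p = 0.116). Rars, the arginyl enzyme, had 2870.4, 2370 and 2438 in knockout cells against 1938, 2306.5 and 2271.5 in wild-type cells (log2 difference 0.23 ± 0.10, limma adjusted p = 0.314). Cars and Aars, the cysteinyl and alanyl enzymes, had the same lack of overlap with log2 differences of 0.23 ± 0.12 and 0.13 ± 0.083.

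In the other direction, Qars, the glutaminyl enzyme, had 1864, 1515.5 and 1844 in knockout arrays, against 2275.5, 2168 and 2587 in wild-type arrays. The knockout arrays were all lower, and the log2 difference of -0.43 ± 0.11 fell just short of the threshold (limma adjusted p = 0.0583). It passed with quantile normalization (adjusted p = 0.0481) and without the dimmest 25% of probe sets (adjusted p = 0.0434). These were the 2 of 17 other settings in which Qars was called, and its limma adjusted p reached 0.344 in the others. Hars, the histidyl enzyme, had 704.7, 707.4 and 786.2 in knockout arrays, against 988.7, 1050.0 and 878.6 in wild-type arrays (log2 difference -0.40 ± 0.11, limma adjusted p = 0.101). Lars, the leucyl enzyme, had 1554, 1755.5 and 1677 in knockout cells against 1860.0, 2059 and 1877 in wild-type cells (log2 difference -0.22 ± 0.089, limma adjusted p = 0.275). Neither of these last 2 enzymes had overlapping groups. The other 11 synthetases had log2 differences between -0.21 and 0.18, all with overlapping groups on their brightest probe sets. Iars, the isoleucyl enzyme and the brightest, had 3604, 3291 and 3167 in knockout arrays and 3006, 2894 and 3345 in wild-type arrays.

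**Figure D3:**
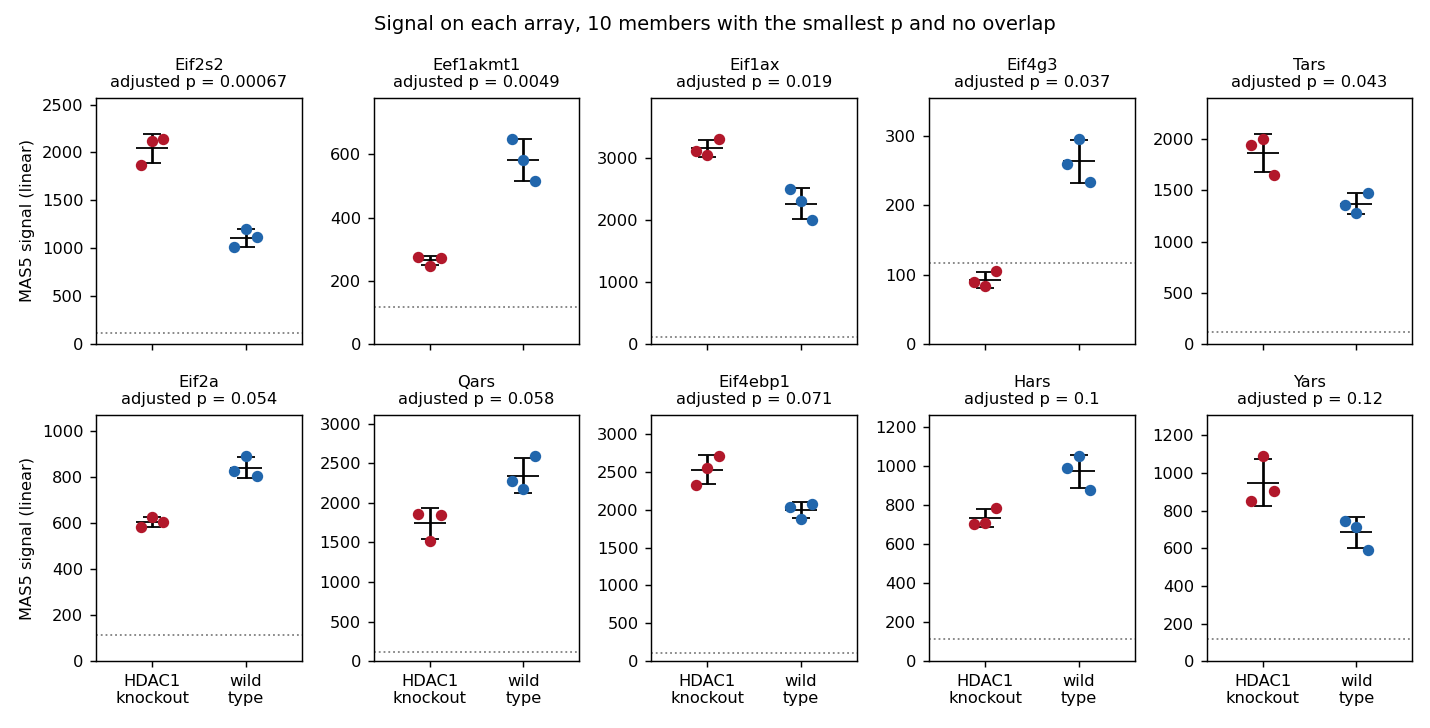
MAS5 signal on each array (points, linear axis from 0) for the 10 members with the smallest p and no overlap between genotypes, HDAC1 knockout in red on the left and wild type in blue on the right of each panel. Bars are mean ± SD over 3 arrays, and the dotted line is the background level. In the upper row, the 5 called members, Eif2s2, Eif1ax and Tars are higher and Eef1akmt1 and Eif4g3 lower in knockout arrays, and the knockout arrays of Eif4g3 lie under the background line.

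As several synthetases are known ATF4 targets, promoters were read for the core of the C/EBP-ATF response element, which ATF4 binds with a C/EBP partner. RefSeq promoters of GRCm38.p6, from 250 bases before to 50 after a start, had an entry for 51 of the 66 members by gene identifier. A gene can have several starts, as 7 of the 51 members (13.7%) and 15.8% of protein-coding genes did, and counted once if any of its windows held the motif. The motif TGATGNAA, searched on both strands, was present in 5 of 12 synthetase promoters (41.7%), in 1 of 6 of elongation genes (Eef2k, in 1 of its 3 windows) and in no promoter of the other roles. Among all 27025 genes with a promoter 4.51% held it, and among the 17491 protein-coding ones 4.13% did. The 5 synthetases include Tars and Yars, whose log2 differences are the highest of the 19 synthetases. They also include Iars and Gars, whose differences of 0.12 and -0.18 were not called. Cars, Hars, Lars, Nars, Rars, Vars and Wars had no promoter entry, so they were not searched. A link between the motif and the differences was not tested. The sequences of Tars, Yars, Iars and Gars, each with 1 window, are printed on the strand of the gene to show the element in its setting. The motif or its reverse complement is in capitals.
Tars, chr15:11399651-11399688 (-), 15 bases before the start: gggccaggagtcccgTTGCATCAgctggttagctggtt
Yars, chr4:129189891-129189928 (+), at base 4 of the transcript: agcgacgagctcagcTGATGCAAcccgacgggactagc
Iars, chr13:49682122-49682159 (+), at base 8 of the transcript: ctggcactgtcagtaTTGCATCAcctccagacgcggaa
Gars, chr6:55037956-55037993 (+), 30 bases before the start: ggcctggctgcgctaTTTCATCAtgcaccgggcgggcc
The search fixes all but 1 letter of the core, so their likeness comes from the search. A match describes the letters of this window and does not show binding.

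The E-box CACGTG, a palindrome that MYC and related factors bind, was found in 14 of the 51 member promoters (27.5%), among them Tars, Iars, Farsb, Eef2 and Eif4e. Of protein-coding genes 8.91% held it, and of all genes with a promoter 8.09%. Of the called members, Eif2s2, Eif1ax and Eif4g3 had neither motif in this window, Tars had both, and Eef1akmt1 has no entry.

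Several probe sets were available for 16 members, with 20 beyond the brightest, of which 13 were above background in at least 1 genotype. Of these 13, 12 had the sign of the brightest probe set and none was called by limma. The exception was Eif3e, another eIF3 subunit. Its brightest probe set had 440.6, 813.0 and 888.3 in knockout arrays and 1219.8, 758.7 and 746.6 in wild-type arrays, and these groups overlapped. Its second had 63.8, 178.3 and 148.2 in knockout arrays, with all 3 wild-type arrays at background (41.6 to 49.4). The probe sets of this gene thus differ in sign, and the counts and range of the eIF3 group use the brightest. Eif4e2, a cap-binding homolog of eIF4E, had a second probe set without overlap at 496.1, 655.9 and 579.8 in knockout cells against 261.9, 386.2 and 476.6 in wild-type cells. Its log2 difference was 0.63 ± 0.22 (limma adjusted p = 0.181), against 0.23 ± 0.16 for the brightest. A second probe set of Wars, the tryptophanyl enzyme, was also without overlap (log2 difference 0.19 ± 0.089, limma adjusted p = 0.339). So was one of Eif4b (log2 difference -0.33 ± 0.11, limma adjusted p = 0.172). The brightest probe sets of Wars and Eif4b overlapped.

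**Figure D4:**
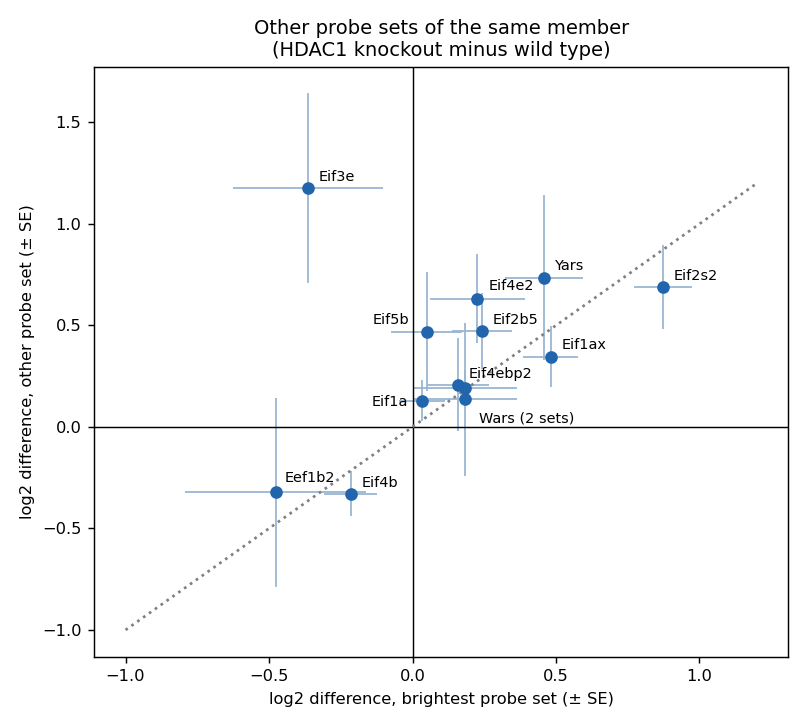
Log2 difference (HDAC1 knockout minus wild type) of the brightest probe set of a member on the x axis against that of its other probe sets above background on the y axis, with SE bars from limma. The dotted line marks equal values. Of the 13 points, 12 share the sign of the brightest probe set, and Eif3e lies apart with -0.36 and a fitted value of 1.18. Its wild-type arrays are at background on that second probe set, where the data give at least 1.22-fold.

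Other genes of the pathway, from lists that share no member with the 66, were read the same way. Over all genes 2.70% were called higher, 1.88% were called lower and 17.1% stood at an unadjusted p under 0.05. Among 14 further cytosolic factors, such as the release factors Etf1 and Gspt1 and the poly(A)-binding protein Pabpc1, none was called by limma and 0 stood at an unadjusted p under 0.05 (median log2 difference -0.0066). Of 8 genes for the synthetase scaffold and tRNA handling, 1 fell, beside 1.88% of all genes. This was Dtd1, a deacylase that removes D-amino acids from tRNA, at 314.6 ± 41.2 in knockout cells and 518.2 ± 17.5 in wild-type cells (SD, n = 3 each; limma adjusted p = 0.048). Of 10 genes that signal to translation, 1 rose and 0 fell, beside 2.70% and 1.88% of all genes. At an unadjusted p under 0.05 stood 3 of the 10, beside 17.1% of all genes. Pdpk1, the kinase that activates AKT and S6 kinases, had 1060.1 ± 79.5 in knockout cells and 697.9 ± 105.2 in wild-type cells (log2 difference 0.60 ± 0.13, limma adjusted p = 0.034). Mknk1, a kinase of eIF4E, had 111.4, 233.7 and 193.3 in knockout arrays and 478.2, 319.7 and 257.3 in wild-type arrays. These groups did not overlap, and 1 knockout array was at background (log2 difference -0.92 ± 0.33, limma adjusted p = 0.194). Mtor had a log2 difference of -0.058 ± 0.18 and Tsc2, which restrains mTORC1, one of -0.40 ± 0.12 (limma adjusted p = 0.111).

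Of 10 genes of the integrated stress response, 1 rose, beside 2.70% of all genes. Asns, asparagine synthetase and an ATF4 target, had 9376 ± 454 in knockout cells and 5774 ± 810 in wild-type cells (log2 difference 0.71 ± 0.10, limma adjusted p = 0.00316). Atf4 itself had 4337 ± 154 in knockout cells and 3877 ± 134 in wild-type cells (log2 difference 0.16 ± 0.074, limma adjusted p = 0.333). Ddit3, or CHOP, which ATF4 also raises, had a log2 difference of the opposite sign, -0.58 ± 0.20 (limma adjusted p = 0.171), and Trib3 one of -0.16 ± 0.28. The list's median was 0.048. Of 9 genes of mitochondrial translation none was called by limma, with a median of 0.086. At an unadjusted p under 0.05 stood 1 of the 9, beside 17.1% of all genes.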

How the data were processed

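The authors deposited 1 intensity per probe set on a linear scale, made with MAS5 per the submitters' processing notes, with version and settings not given in the sources used. Trimmed means (2% at each end) were 500.3 on all 6 arrays, so the deposited intensities were used as they stood, and a shift of all transcripts in 1 direction cannot be seen. After leaving out 66 control probe sets, 12422 were tested. In the platform annotation 10833 probe sets had 1 symbol, 396 several and 1193 none. A probe set naming Eif4a3 with other genes was left out. All 66 members matched the RefSeq gene table (GRCm38.p6) by identifier, and 51 the promoter table.

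With limma 3.58.1 (R 4.3.3; lmFit, then eBayes with an intensity trend) the log2(signal + 16) values were fitted without covariates, and adjusted with Benjamini-Hochberg over all probe sets. Errors on signals are SDs and errors on log2 differences limma's standard errors. With 3 arrays per genotype, their number limits the precision. The scripts were tested on simulated data. The members, lists, motifs, background level and tests were chosen with earlier results of these data known. Per-array values were given for called members, then for members with an unadjusted p under 0.05 and no overlap (up to 30), the brightest of each role, and Eif2ak4, Eif4ebp1, Eif4e, Eef2 and Eef1a1. Other genes named with values (such as Eif1a, Mknk1, Eif3d, Eif3e, Eif4b, Eef1d, Cars and Aars) were chosen after their values were seen. The promoter sequence of 1 synthetase is not reported here.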

Additional observations from a re-analysis of the deposited data

How the results depend on the processing

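The arrays per genotype (3) limit what could be called, and 6 of 66 members were at background in both genotypes. Beside the 3 members higher and 2 lower, the counts were 4 and 1 with median centring, 3 and 4 without the dimmest 25% of probe sets, 0 and 2 without a variance trend, and 1 and 1 with the replicate block. With 1 array left out they were 1 to 3 and 1. Among the 12422 probe sets 279 rose and 203 fell, against 344 and 129 with median centring, 82 and 50 without a trend, 200 and 119 with the replicate block, and 150 to 246 and 98 to 174 with 1 array left out. Replicate numbers did not pair the arrays (correlations of same-numbered deviations -0.0835 to -0.0116), and with the block Eif1ax, Eif4g3 and Tars were not called (adjusted p = 0.0553, 0.0987 and 0.116).

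The members' median of -0.0093 was 0.069 with median centring and -0.040 to 0.0037 with 1 array left out. By construction median centring moved every member by 0.078, and the median of all genes from -0.037 to 0.041. It moved the median of the eIF3 and eIF6 group from -0.088 to -0.010, and those of the eIF1, eIF2, eIF2B and eIF5 group to 0.12 and of the synthetases to 0.13. The eIF1, eIF2, eIF2B and eIF5 median was 0.090 when probe sets were averaged by gene. With 1 array left out it ran from 0.0060 to 0.072, the eIF4 group's from -0.034 to 0.15 and the synthetases' from -0.022 to 0.094. With 1 array left out Eef1a1 ran from -0.11 to 0.10. Eif4e ran from -0.060 to 0.48, and was -0.21 with its probe sets averaged, but both its probe sets are at background, so these values carry no direction. The cause of the other changes was not tested. For the 25 members named by rule, Eef1a1 and Eif4e included, 390 of 424 values kept their direction and their side of the threshold. Of the other 41 members, 19 changed sign in at least 1 setting. Among those above background the one farthest from 0 was Eif3e at -0.36.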
